A study of Mus musculus with 7 samples.

Results

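The RNA compared here is that of extracellular vesicles (EVs) released by RAW264.7 cells carrying a hairpin against Dis3l2 (shDis3l2), set against EVs of RAW264.7 cells carrying a non-silencing hairpin (shNS). RAW264.7 is a mouse macrophage line. The pair was chosen by its labels and makes up 2 of the 7 libraries of the series, 1 library for each group. Doxycycline was given to both lines. Vesicles came from the medium of several flasks per line. They were floated in sucrose and then exposed to micrococcal nuclease, an enzyme that digests RNA not enclosed in a membrane. The study also sequenced EVs of shDis3l2 cells with 1 of 3 added constructs, an empty vector (Vector), Dis3l2 with the D389N change described as catalytically inactive (D389N), or a Dis3l2 transgene that resists the hairpin (Dis3l2r), and whole cells of the shDis3l2 and shNS lines, depleted of ribosomal RNA, all with doxycycline. These 5 libraries serve below as a setting for the pair. Whether a line is a clone is not stated in the labels. The knockdown of Dis3l2 and the macrophage markers could not be checked, because the transcript IDs of the table are not paired with gene names. With 1 library a group there is no replicate spread and no p-value for the pair. Every interval below covers counting error only.

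Dis3l2 is an exoribonuclease that degrades RNA from its 3' end and prefers RNAs that carry an added tail of uridines. It takes part in the surveillance of small structured RNAs, among them tRNAs and other transcripts of RNA polymerase III. Some tRNA genes hold an intron, and their transcripts must be cut and ligated before they can work in translation, so an unspliced tRNA is a precursor. Vesicles carry short structured RNAs, and the reverse transcriptases encoded by group II introns, used here, read through such structures.

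Counts on rows that stand for whole RNAs came to 18428621 in shDis3l2 EVs and 23667929 in shNS EVs. Such rows numbered 3894 and comprised 3639 Ensembl transcripts, 224 tRNA genes, 15 spliced tRNAs, 15 rows for short interspersed repeats (SINEs) and 1 row for 4.5S RNA. Of these rows, 787 were above 0 in shDis3l2 EVs and 815 in shNS EVs. tRNA rows held 69.9% of the shDis3l2 EV counts and 73.8% of the shNS EV counts. In shDis3l2 EVs 4.5S RNA, a short rodent transcript of RNA polymerase III, held 6.69% of counts, against 4.78% in shNS EVs. Transcript rows held 22.2% in shDis3l2 EVs and 20.0% in shNS EVs, and spliced tRNA rows held 1.04% in shDis3l2 EVs and 1.22% in shNS EVs. SINE rows had the same share in both, 0.154%. In the other EV libraries tRNA rows held between 69.5% and 75.8% of counts and 4.5S RNA between 5.06% and 8.30%, so for tRNA the pair lies within the range of the other EV libraries, while the 4.5S share of shNS EVs was below the other 4. The 10 most abundant RNAs held 56.8% of counts in shDis3l2 EVs and 52.4% in shNS EVs. These shares are relative, and fewer vesicles cannot be told apart from less RNA per vesicle.

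Differences were expressed as log2 ratios of shDis3l2 over shNS EVs after TMM scaling (trimmed mean of M values), and CPM below means counts scaled to the size of the TMM-adjusted library (counts per 10 to the power 6). An RNA passed the rule of size when it had at least 100 counts over both libraries, differed at least 2-fold and had a 95% interval that left out equality. Of 411 RNAs measured, 29 were higher (7.06%) and 17 were lower (4.14%) in shDis3l2 EVs, 11.2% in all. The balance of the directions followed the scaling. It was 23 higher and 21 lower with library totals, and 21 and 23 with the totals of all rows. The last scaling lowered every ratio by 0.15 and DESeq2 size factors lowered it by 0.11. Most of what passed was thinly covered. The 29 higher RNAs had a median of 798 counts over the pair and the 17 lower ones a median of 198, and 15 RNAs of each direction had under 1000. The share beyond 2-fold was 60.3% among RNAs with 20 to 100 counts, 17.1% from 100 to 1000, 12.0% from 1000 to 10000 and 2.94% above 10000 counts.

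**Figure D1:**
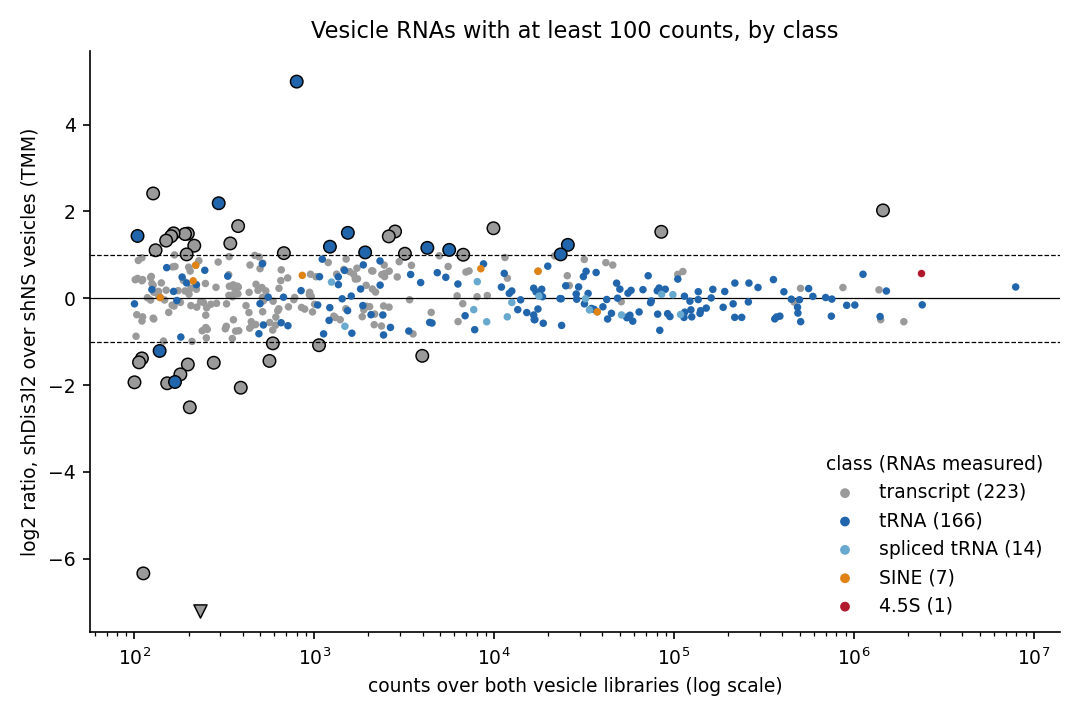
The log2 ratio of shDis3l2 over shNS EVs is plotted against the counts over both libraries (log scale) for the 411 RNAs with at least 100 counts, coloured by class. Large points with a black edge passed the rule of size, dashed lines mark 2-fold, and the triangle at the bottom is an RNA with 0 counts in shDis3l2 EVs. Points spread widely at low counts and close in towards 0 above 10000 counts, where ENSMUST00000174924 stands apart at 2.02.

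For comparison, EVs of Vector cells, which carry the same hairpin as shDis3l2 cells, were set against shDis3l2 EVs by the same rule. Of 393 RNAs measured, 34 were higher (8.65%) and 66 lower (16.8%) in Vector EVs, 25.4% in all. With TMM, the knockdown pair had a smaller share of RNAs past the rule than this pair of libraries with the same hairpin. Both pairs contain the shDis3l2 library, so they are not independent. The RNAs measured were not the same set, and the Vector pair was not recomputed under other scalings. The difference between the shares was not tested. In Vector EVs the transcripts were mostly below shDis3l2 EVs (8 of 202 higher and 64 lower), and the tRNAs above them (26 of 170 higher and 2 lower).

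tRNAs carry amino acids to the ribosome, and their genes form families of near-identical copies that share an anticodon. Reads can be split between such copies by the counting, so sums over an anticodon are firmer than values of a gene. Of 166 tRNA rows measured, 10 were higher and 2 lower in shDis3l2 EVs, 7.23% in all, against 11.2% of all 411 RNAs. Over the 194 tRNA rows with at least 20 counts, 93 lay above 0 and 101 below, with a median of -0.02, against a median of 0.00020 for all 557 RNAs of that depth. Summed by anticodon without the spliced rows, 2 of 49 families measured were higher (4.08%) and 0 were lower. Of the 49, 42 lay within 0.5 of 0. The family ratios ran from -0.54 for SeC-TCA, the tRNA that inserts selenocysteine, to 1.11 for Ile-TAT. Totals shift all these ratios by -0.09, so the sign of families near 0 follows the scaling.

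Both families past the rule were unspliced tRNAs of families with an intron. The Ile-TAT rows summed to 1708 CPM in shDis3l2 EVs, 1543 in Vector, 986 in D389N and 690 in Dis3l2r EVs, against 792 CPM in shNS EVs, a log2 ratio of 1.11 (1.08 to 1.14) for the pair. The Arg-TCT rows summed to 251 CPM in shDis3l2 EVs, 213 in Vector, 136 in D389N and 127 in Dis3l2r EVs, against 122 CPM in shNS EVs, a log2 ratio of 1.04 (0.97 to 1.11). In each family the shDis3l2 library was the highest of the 5 and the Dis3l2r and shNS libraries were the 2 lowest with TMM. With totals this held for Ile-TAT, while for Arg-TCT the D389N library was lowest at 121 CPM, below 126 CPM in shNS EVs. Neither call held under each scaling. Arg-TCT was 0.95 with totals and 0.89 with the totals of all rows, and Ile-TAT was 0.96 under the all-row scaling. The unspliced Tyr-GTA rows, with 370 CPM in shDis3l2 EVs and 229 CPM in shNS EVs, had a ratio of 0.70 (0.64 to 0.75) and Leu-CAA of 0.21 (0.18 to 0.25). These 2 families were inside the rule.

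**Figure D2:**
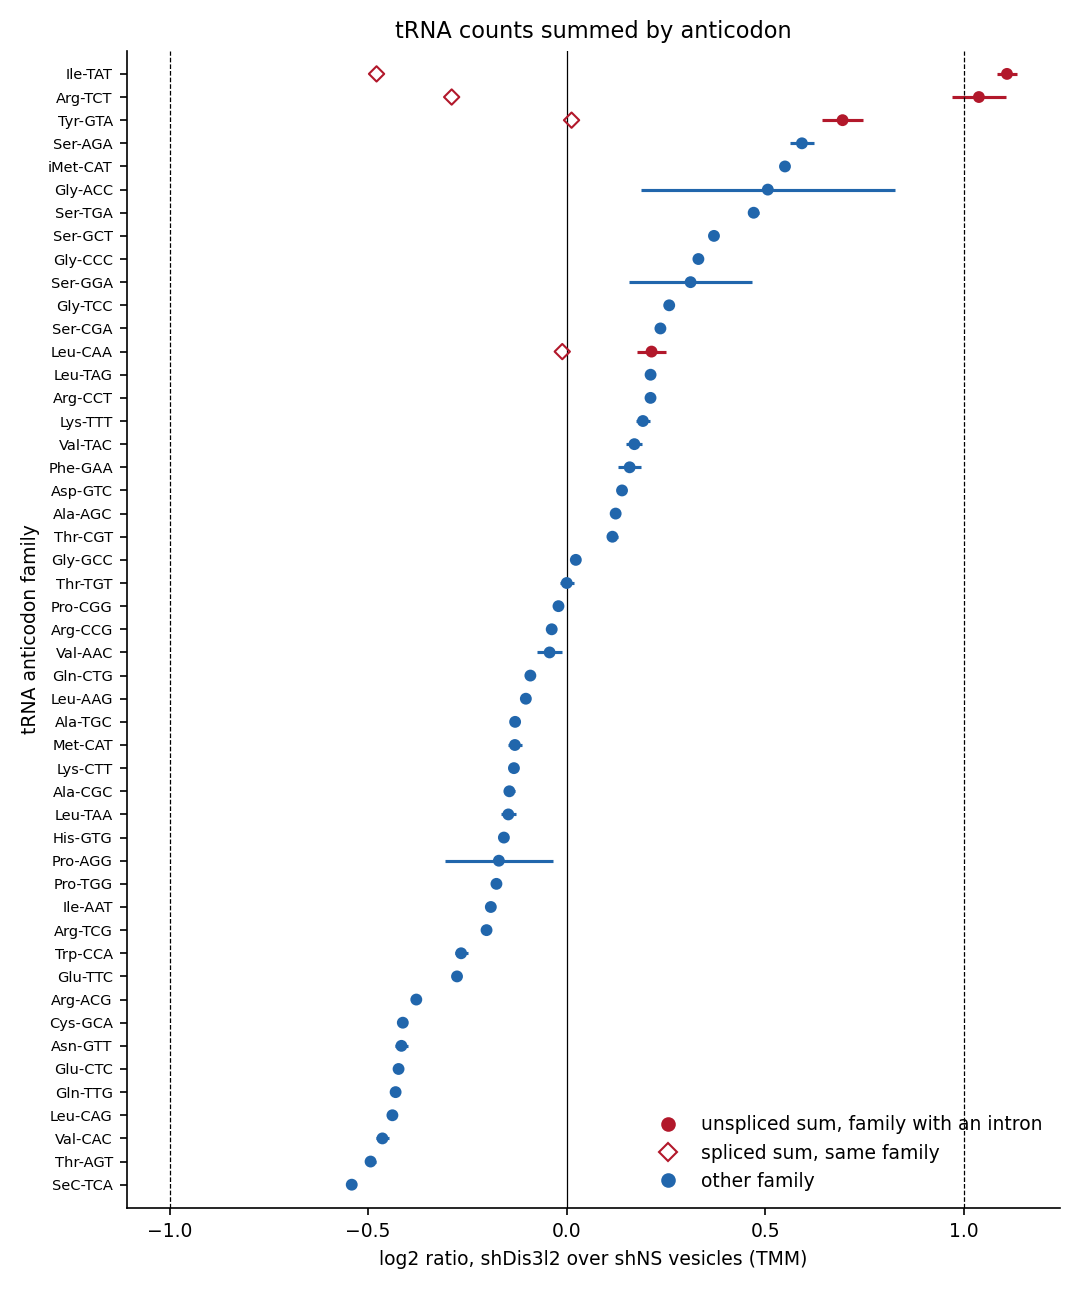
The log2 ratio of shDis3l2 over shNS EVs is shown for tRNA counts summed by anticodon, for the 49 families with at least 100 counts, with bars for the exact binomial 95% interval (counting error) and dashed lines at 2-fold. The unspliced sums of Ile-TAT, Arg-TCT and Tyr-GTA (filled red) are the 3 highest families, while the spliced sums of the 4 families with an intron (open diamonds) lie between -0.48 and 0.01.

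At the level of rows, 19 of the 21 unspliced rows of the 4 families with at least 20 counts were above 0, with a median of 0.64. Of the 20 measured, 4 were higher and 0 lower by the rule, 20.0% in all, against 7.06% higher and 11.2% in all among the 411 RNAs. tRNA-Ile-TAT-1-1 had 912 CPM in shDis3l2 EVs, 908 in Vector, 551 in D389N and 327 in Dis3l2r EVs, against 389.3 CPM in shNS EVs, and its ratio was 1.23 (1.19 to 1.26). tRNA-Ile-TAT-2-3 had 785, 594, 420 and 343 CPM in the same 4 libraries, against 390.0 CPM in shNS EVs, with a ratio of 1.01 (0.97 to 1.05) that was 0.92 with totals. With TMM, shDis3l2, Vector and D389N EVs were all above Dis3l2r and shNS EVs for these 2 genes. With totals this held for tRNA-Ile-TAT-1-1 but not for tRNA-Ile-TAT-2-3, where D389N EVs were lowest at 374 CPM, against 401 CPM in shNS EVs. tRNA-Arg-TCT-1-1 had 194 CPM in shDis3l2 EVs, 133 in Vector, 96.8 in D389N and 84.7 in Dis3l2r EVs, against 89.6 CPM in shNS EVs, with a ratio of 1.11 (1.03 to 1.19), and 0.96 with totals of all rows. tRNA-Tyr-GTA-1-4 had 42.9 CPM in shDis3l2 EVs, 39.4 in Vector, 37.2 in D389N and 20.3 in Dis3l2r EVs, against 18.9 CPM in shNS EVs, with a ratio of 1.19 (1.02 to 1.36). In both, shDis3l2, Vector and D389N EVs were above Dis3l2r and shNS EVs with TMM. With totals this held for tRNA-Tyr-GTA-1-4 but not for tRNA-Arg-TCT-1-1, where D389N EVs were lowest at 86.3 CPM, against 92.2 CPM in shNS EVs. Over the 21 rows, shDis3l2 EVs were above shNS EVs in 19, above Dis3l2r EVs in 17, above D389N EVs in 14 and above Vector EVs in 8. The exceptions below shNS were tRNA-Tyr-GTA-1-3 at -0.90, with 51 counts in shDis3l2 and 130 in shNS EVs, and tRNA-Ile-TAT-2-1 at -0.13.

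Spliced tRNAs are the finished products of the same genes. Of the 14 spliced rows measured, 0 passed the rule, against 11.2% of all 411 RNAs. With so few rows the difference from that share was not tested. Of the 14, 5 were above 0 and 9 below, and the median was -0.18. As sums, spliced Ile-TAT stood at -0.48 (-0.52 to -0.44), spliced Arg-TCT at -0.29 (-0.30 to -0.28), spliced Leu-CAA at -0.01 (-0.02 to 0.00045) and spliced Tyr-GTA at 0.01 (-0.02 to 0.05). For Ile-TAT and Arg-TCT, unspliced and spliced sums thus went in opposite directions. With totals each spliced sum was below 0, Tyr-GTA included at -0.08. Unspliced and spliced rows summed together gave, with TMM, 0.64 for Ile-TAT, 0.21 for Tyr-GTA, 0.009 for Leu-CAA and -0.23 for Arg-TCT. All of these were inside the rule.

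The share of unspliced counts within a family does not depend on the scaling between libraries. Summed over the 4 families it was 21.5% in shDis3l2 EVs (95% interval 21.3% to 21.7%), 20.8% in Vector, 24.1% in D389N and 21.0% in Dis3l2r EVs, against 12.5% in shNS EVs (12.35% to 12.58%). The shNS library was the lowest of the 5, and the other 4 lay close together, the Dis3l2r library among them. The sum also depends on how many counts each family contributes, and for Tyr-GTA alone these 4 libraries spread more widely. Ile-TAT was unspliced in 80.9% of counts in shDis3l2 EVs, 83.2% in Vector, 78.7% in D389N and 69.6% in Dis3l2r EVs, against 58.4% in shNS EVs. Arg-TCT was unspliced in 6.35% of counts in shDis3l2 EVs, 5.59% in Vector, 6.01% in D389N and 6.10% in Dis3l2r EVs, against 2.63% in shNS EVs. Here too shNS EVs were lowest, and for Arg-TCT the Dis3l2r library lay among the other 3. The share of Tyr-GTA was 34.4% in shDis3l2 EVs, 42.8% in Vector, 62.9% in D389N and 45.6% in Dis3l2r EVs, against 24.7% in shNS EVs. The share of Leu-CAA was 9.49% in shDis3l2 EVs and 8.24% in shNS EVs, with 11.2% to 16.5% in the other 3 EV libraries. By name, 14 tRNAs have both an unspliced and a spliced row. In 13 of these pairs of rows the unspliced share was higher in shDis3l2 than in shNS EVs. tRNA-Tyr-GTA-4-1 was the exception, at 10.9% in shDis3l2 and 12.4% in shNS EVs. Unspliced rows with no spliced row of the same name were left out of these 14 shares, but not out of the family shares. Among the rows left out was tRNA-Ile-TAT-2-3, with 13947 counts in shDis3l2 EVs and 9497 in shNS EVs. Ile-TAT had 5 unspliced rows and 2 spliced rows, and Tyr-GTA had 10 and 5. A share matched by name therefore need not be the unspliced share of a single gene. For tRNA-Ile-TAT-1-1 the share was 84.2% in shDis3l2 and 61.0% in shNS EVs, and for tRNA-Arg-TCT-1-1 it was 8.08% in shDis3l2 and 3.04% in shNS EVs. Reads that cover only the exons of a tRNA could be assigned to either kind of row, and the counting at such positions is not stated in the labels.

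**Figure D3:**
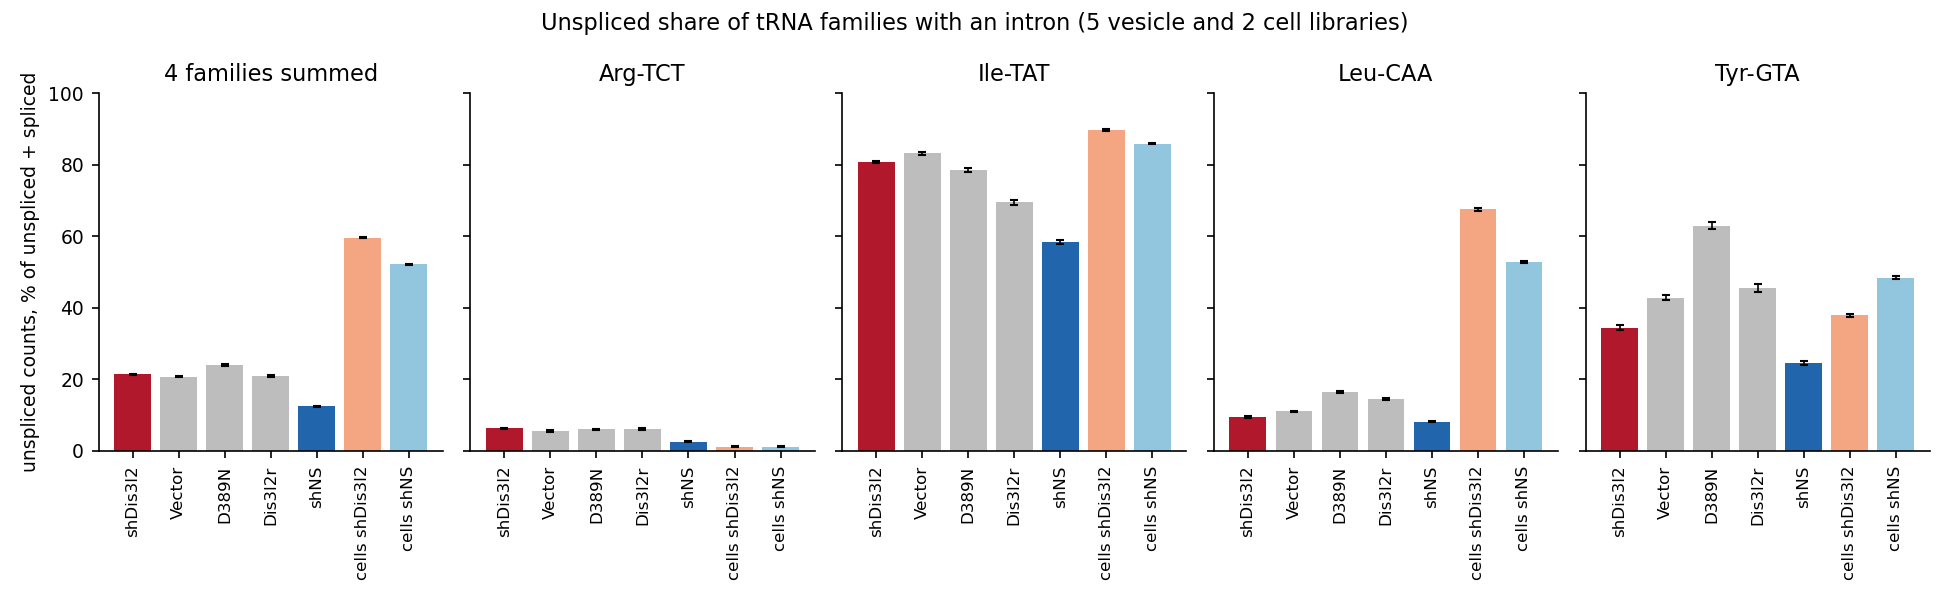
Bars give the counts on unspliced rows as a percentage of unspliced plus spliced counts in the 4 tRNA families with an intron, summed and singly, in 5 EV libraries and 2 whole-cell libraries, with exact binomial 95% intervals (counting error). Among EV libraries the shNS bar is the lowest in each panel, and in cells the order of shDis3l2 and shNS differs between families.

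In cells the same shares were 59.7% in shDis3l2 and 52.3% in shNS for the 4 families summed. Leu-CAA stood at 67.6% in shDis3l2 cells and 53.0% in shNS cells, and Ile-TAT at 89.8% in shDis3l2 cells and 86.0% in shNS cells. Tyr-GTA went the other way, with 38.0% in shDis3l2 cells and 48.5% in shNS cells, and Arg-TCT was at 1.19% in both. Of the 14 pairs of rows matched by name, 9 had the higher share in shDis3l2 cells. The EV and the cell pair thus had the same direction in the sum, in Ile-TAT and in Leu-CAA, but not in Tyr-GTA.

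Outside the families with an intron, 6 of 146 tRNA rows were higher and 2 lower, 5.48% in all, against 11.2% of all RNAs. The largest ratio belonged to tRNA-Thr-AGT-7-1, a threonine tRNA gene, with 765 counts in shDis3l2 EVs and 33 in shNS EVs. It had 43.1 CPM in shDis3l2 EVs, 42.8 in Vector, 6.52 in D389N and 7.19 in Dis3l2r EVs, against 1.36 CPM in shNS EVs, and its ratio was 4.99 (4.49 to 5.54). shDis3l2 and Vector EVs were thus alike and high, D389N and Dis3l2r EVs were alike and between, and shNS EVs lowest. The row held 1.14% of its family's counts in shDis3l2 EVs and 0.0255% in shNS EVs, and it had 0 counts in both cell libraries. The Thr-AGT family as a whole stood at -0.49, and its other 6 rows lay between -0.74 and 0.02.

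tRNA-Leu-AAG-2-1, a leucine tRNA gene, had 12.7 CPM in shDis3l2 EVs and between 0.672 and 2.40 CPM in the other 3 knockdown libraries, against 2.78 CPM in shNS EVs, a ratio of 2.19 (1.79 to 2.60). It was high in the shDis3l2 library alone. tRNA-Lys-TTT-5-1, a lysine tRNA gene, had 58.3 CPM in shDis3l2 EVs, 29.9 in Vector, 89.0 in D389N and 40.0 in Dis3l2r EVs, against 20.5 CPM in shNS EVs, a ratio of 1.51 (1.35 to 1.66). Here shNS EVs were lowest and D389N EVs highest. tRNA-Ala-AGC-8-1, an alanine tRNA gene, had 148 CPM in shDis3l2 EVs, 262 in Vector, 161 in D389N and 59.7 in Dis3l2r EVs, against 66.4 CPM in shNS EVs, a ratio of 1.16 (1.07 to 1.25). For this gene shDis3l2, Vector and D389N EVs were all above Dis3l2r and shNS EVs, also with totals. The other alanine gene, tRNA-Ala-TGC-5-1, was thinly covered with 69 counts in shDis3l2 and 35 in shNS EVs, a ratio of 1.43 (0.83 to 2.06). tRNA-Val-AAC-1-1, a valine tRNA gene, had 65.0 CPM in shDis3l2 EVs, 89.5 in Vector, 29.6 in D389N and 23.0 in Dis3l2r EVs, against 31.3 CPM in shNS EVs, a ratio of 1.05 (0.92 to 1.19) that was 0.96 with totals. D389N EVs were below shNS EVs for this gene.

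Both lower tRNAs had few counts. tRNA-Trp-CCA-1-1, a tryptophan tRNA gene, had 27 counts in shDis3l2 and 141 in shNS EVs, a ratio of -1.93 (-2.58 to -1.33). tRNA-iMet-CAT-3-1, a gene of the initiator tRNA that starts translation, had 33 counts in shDis3l2 and 105 in shNS EVs, a ratio of -1.22 (-1.83 to -0.64). The initiator family as a whole went the other way. tRNA-iMet-CAT-1-1, which held 99.9% of the family's counts, had 32683 CPM in shDis3l2 EVs, 47237 in Vector, 64495 in D389N and 38118 in Dis3l2r EVs, against 22307 CPM in shNS EVs, a ratio of 0.55. Genes within a family also differed. Over 40 families with more than 1 measured row, the range of ratios within a family had a median of 0.69 and was over 1 in 15.

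**Figure D4:**
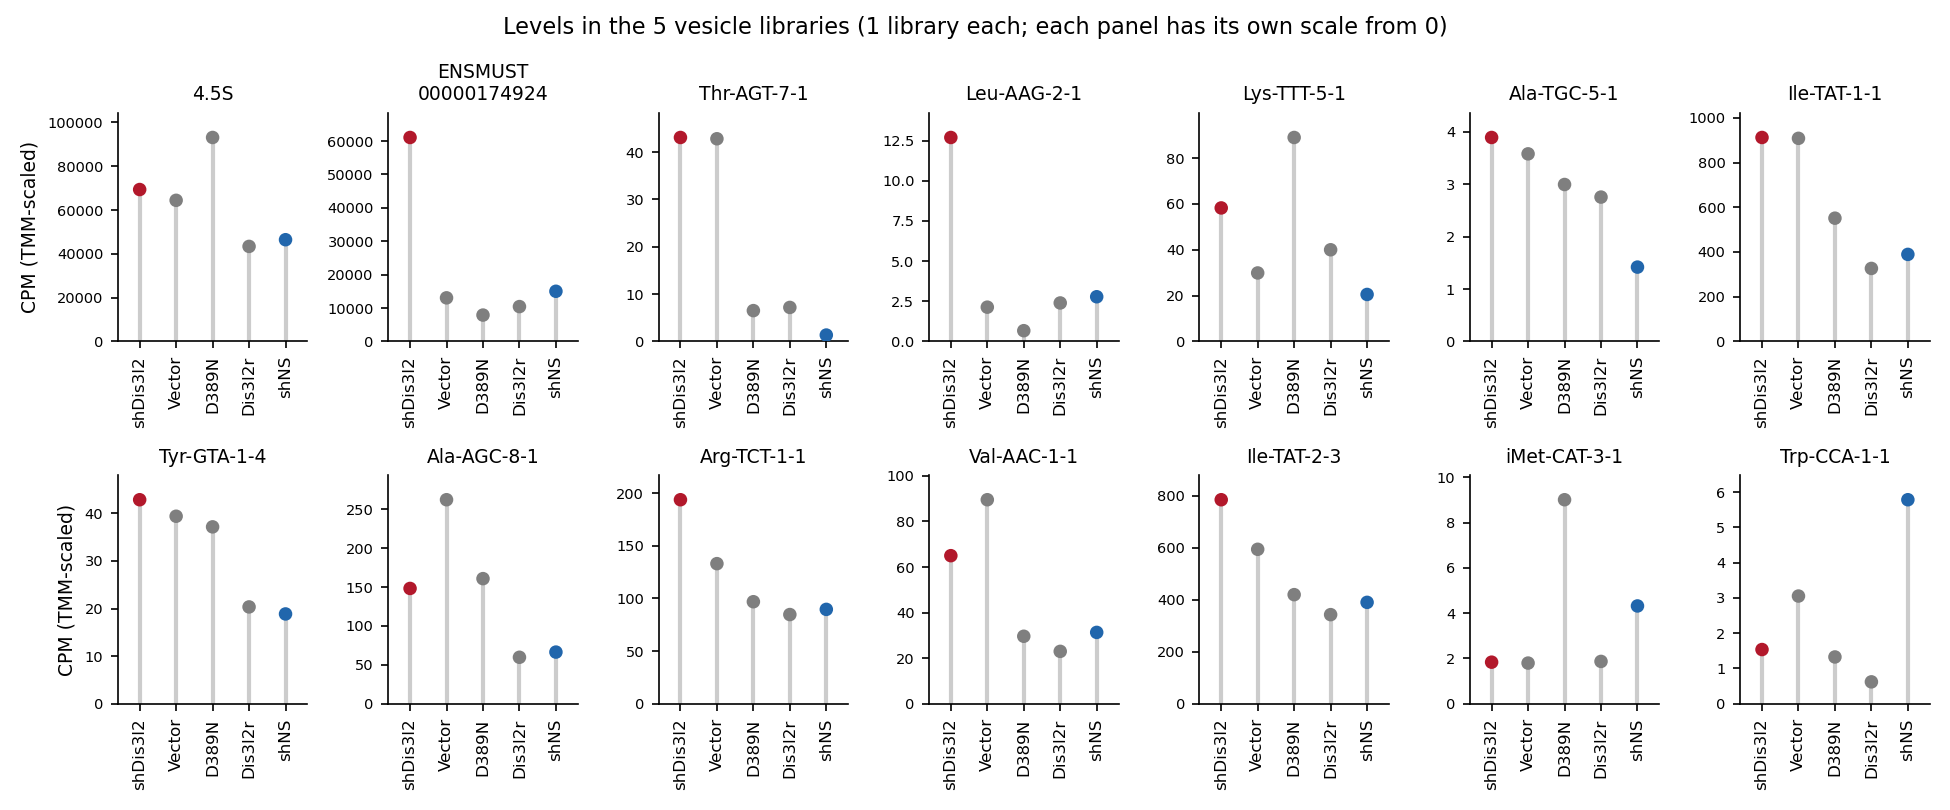
Each panel shows the level (TMM-scaled CPM, from 0, with its own scale) of an RNA in the 5 EV libraries, 1 library each, for 4.5S RNA, ENSMUST00000174924 and the 12 named tRNAs past the rule of size. ENSMUST00000174924 and Leu-AAG-2-1 are high in the shDis3l2 library alone, Thr-AGT-7-1 is high in shDis3l2 and Vector, and Tyr-GTA-1-4 and Ile-TAT-1-1 are higher in shDis3l2, Vector and D389N than in Dis3l2r and shNS.

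By amino acid, with the spliced rows included, 1 of 23 sums was higher (4.35%) and 0 lower. It was the sum of the 2 suppressor tRNA rows, which are annotated with an anticodon for a stop codon, with 67 counts in shDis3l2 and 35 in shNS EVs and a ratio of 1.39 (0.78 to 2.02). Serine tRNAs stood at 0.37 and glycine tRNAs at 0.24. Most glycine counts were on tRNA-Gly-TCC-1-1, the most abundant RNA of the pair, which held 20.1% of shDis3l2 EV counts and 17.9% of shNS EV counts. It had 208170 CPM in shDis3l2 EVs, 178970 in Vector, 128560 in D389N and 127430 in Dis3l2r EVs, against 174020 CPM in shNS EVs. The shDis3l2 library was the highest and Vector and shNS EVs were close to each other. Glutamate, cysteine, asparagine and selenocysteine tRNAs were the lowest sums, between -0.54 and -0.40.

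The 4.5S RNA had 69388 CPM in shDis3l2 EVs, 64461 in Vector, 93158 in D389N and 43418 in Dis3l2r EVs, against 46471 CPM in shNS EVs, a ratio of 0.58 (0.57 to 0.58). Both with TMM and with totals, shDis3l2, Vector and D389N EVs were above Dis3l2r and shNS EVs, and the ratio of the pair was inside the 2-fold rule. SINE RNAs, transcribed from repeats by RNA polymerase III, had 11 rows with at least 20 counts, 6 above 0 and 5 below, with a median of 0.02 (-0.08 with totals). Among the 7 SINE rows that reached 100 counts, the median was 0.53, with 6 above 0. Of these 7 rows 0 passed the rule, against 11.2% of all 411 RNAs, which was not tested. SINE_B2 had 255 CPM in shDis3l2 EVs, 208 in Vector, 154 in D389N and 151 in Dis3l2r EVs, against 160 CPM in shNS EVs, a ratio of 0.68 (0.62 to 0.74). The pair of rows named SINE_B1_Mus2 diverged, at 0.62 (0.58 to 0.66) for the first and -0.31 (-0.34 to -0.28) for the second, which had 778 CPM in shDis3l2 EVs and 968 CPM in shNS EVs. Of 13 SINE rows with at least 20 counts over the 7 libraries, 8 had the counts of a transcript row in each library to within 0.5 counts, so these RNAs stand in both classes.

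Of the 223 transcripts measured, whose kind of RNA the table does not state, 19 were higher and 15 lower, 15.2% in all, against 11.2% of all RNAs. Over the 337 with at least 20 counts the median was 0.03 (-0.06 with totals). ENSMUST00000174924 carried the largest difference in counts. It had 61085 CPM in shDis3l2 EVs, 13065 in Vector, 7907 in D389N and 10449 in Dis3l2r EVs, against 15032 CPM in shNS EVs, a ratio of 2.02 (2.02 to 2.03). The shDis3l2 library stood apart from the other 4, which lay between 7907 CPM in D389N and 15032 CPM in shNS EVs. The transcript took 5.89% of the shDis3l2 EV counts, against 1.55% of the shNS EV counts. ENSMUST00000082474, the largest ratio among transcripts, had 101 counts in shDis3l2 and 26 in shNS EVs, a ratio of 2.41 (1.78 to 3.09). Its level was 5.67 CPM in shDis3l2 EVs, 8.26 in Vector, 3.77 in D389N and 1.54 in Dis3l2r EVs, against 1.06 CPM in shNS EVs, so the first 3 libraries were above the other 2, also with totals.

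Among the lower transcripts, ENSMUST00000083163 had 0 counts in shDis3l2 EVs and 232 in shNS EVs. Taking the floor of 3 counts per library for the 0, it was at least 56.4-fold lower. Its level was also 0 in Vector, D389N and Dis3l2r EVs, so in EVs it was found in the shNS library alone. In cells the direction was the opposite, with 92 counts in shDis3l2 and 0 in shNS, which is under the minimum of 100 counts for the rule. ENSMUST00000082807 had 1 count in shDis3l2 EVs and 111 in shNS EVs, a ratio of -6.34 (-11.66 to -3.83). Its level was 0 in Vector and D389N EVs and 6.72 CPM in Dis3l2r EVs, against 4.55 CPM in shNS EVs. The shDis3l2, Vector and D389N libraries were thus at or near 0 and the other 2 were not. In cells it had 45 counts in shDis3l2 and 1617 in shNS.

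Across the 5 EV libraries the shDis3l2 library was above all 4 others in 104 of 411 RNAs (25.3%) and below all in 45 (10.9%). Transcripts made up 82 of the 104, of 223 measured, and tRNAs 18, of 166 measured. Of the 29 RNAs higher in the pair, 22 had their highest level in shDis3l2 EVs, and of the 17 lower ones 4 had their lowest level there. A level above or below all others is in part given by the pair itself, which shares the shDis3l2 and shNS libraries. The EV libraries were also split by Dis3l2, going by their titles, with shDis3l2, Vector and D389N taken to lack the active enzyme and Dis3l2r and shNS to have it. In 55 RNAs (13.4%) all 3 libraries of the first class were above both of the second, and in 59 (14.4%) all were below. tRNAs made up 36 of the 55 and 1 of the 59, and transcripts 16 and 58. Unspliced rows of the families with an intron made up 10 of the 55, out of 20 measured. With totals in place of TMM the first count was 21, with 15 tRNAs and 3 unspliced rows, and the second was 82. Of the 19 higher transcripts of the pair 2 had this split, and of the 15 lower ones 12 had it. A call in the pair already fixes the order of shDis3l2 and shNS, which is part of the split.

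In the edgeR quasi-likelihood fit on this class, with Benjamini-Hochberg adjustment over 575 RNAs, 1 RNA passed (0.174%) and 34 had an unadjusted p below 0.05. Libraries within a class differ in genotype, so they do not replicate each other. The RNA that passed was ENSMUST00000082807, with a log2 fold change of -7.92 (SE 1.09, edgeR adjusted p = 0.00406) that depends on the prior count because of its zeros. Without the Vector library edgeR passed 0 RNAs, with 25 at an unadjusted p below 0.05. tRNA-Thr-AGT-7-1 had a log2 fold change of 2.86 (SE 0.849, edgeR adjusted p = 0.425) and tRNA-Ala-AGC-8-1 of 1.62 (SE 0.466, edgeR adjusted p = 0.425). For tRNA-Ile-TAT-1-1 it was 1.16 (SE 0.425, edgeR adjusted p = 0.669) and for 4.5S RNA 0.79 (SE 0.344, edgeR adjusted p = 0.669). None of these 4 passed.

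Whole cells of the 2 lines showed another pattern. Of 513 RNAs measured in cells, 60 were higher (11.7%) and 123 lower (24.0%) in shDis3l2 cells, and this split was 33 and 179 with totals and 108 and 74 without the transcript that held most counts of shDis3l2 cells. That transcript took 46.1% of counts in shDis3l2 cells and 19.3% in shNS cells, a ratio of 1.52, whereas in EVs it took 3.43% in shDis3l2 and 5.34% in shNS, a ratio of -0.54. The 4.5S RNA stood at -0.91 in cells and 0.58 in EVs. Across 379 RNAs measured in both pairs, which share no library, the EV and cell ratios had a Pearson correlation of 0.163 and a Spearman correlation of 0.046. These are RNAs and not independent replicates. Of the RNAs measured in both, 39 passed the rule in EVs and 132 in cells. They had 18 in common, 46.2% of the first list and 13.6% of the second. Over all RNAs measured in each pair, 35.7% passed in cells and 11.2% in EVs. Of the 18, 12 had the same direction and 6 the opposite one. This overlap was not recomputed under the other scalings, and whether it exceeds that of unrelated lists was not tested. Among the tRNAs, Ala-AGC-8-1 was higher in both, Trp-CCA-1-1 was lower in both, and Val-AAC-1-1 was higher in EVs at 1.05 and lower in cells at -1.06. ENSMUST00000174924 was higher in both, at 2.02 in EVs and 1.48 in cells. Of the 4 unspliced tRNAs past the rule in EVs, 0 passed it in cells, where tRNA-Arg-TCT-1-1 stood at 0.58, tRNA-Tyr-GTA-1-4 at 0.33, tRNA-Ile-TAT-1-1 at 0.15 and tRNA-Ile-TAT-2-3 at -0.05.

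**Figure D5:**
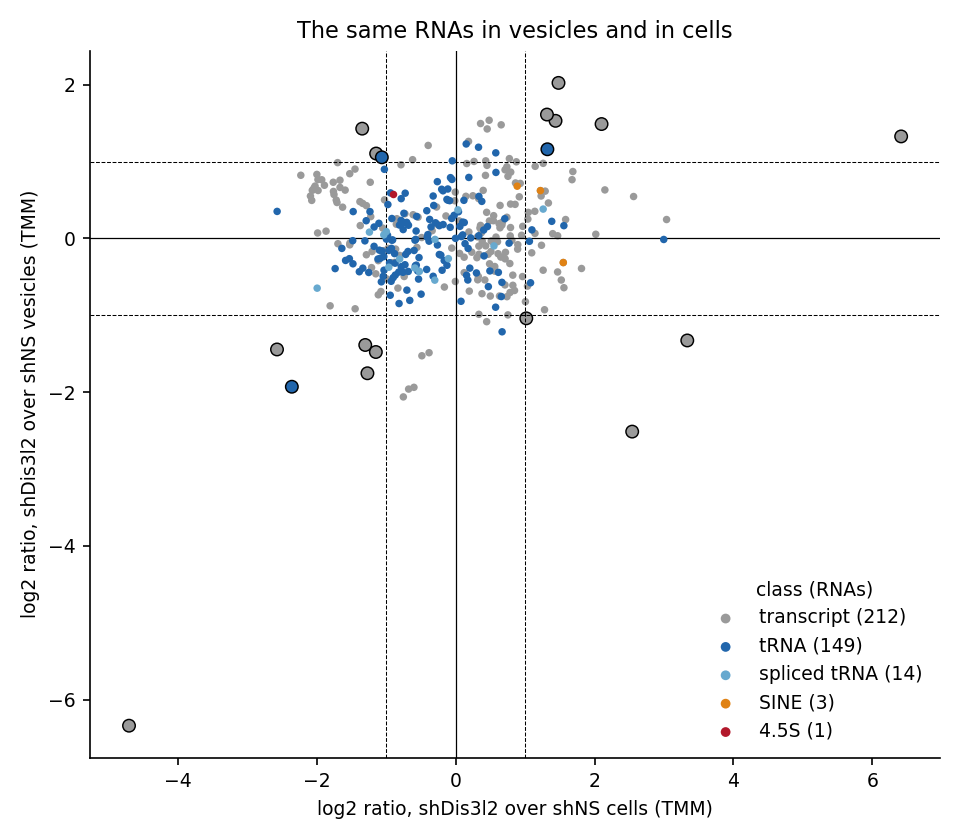
The log2 ratio of shDis3l2 over shNS in EVs is plotted against that in whole cells for 379 RNAs with at least 100 counts in each pair, coloured by class. Large points with a black edge passed the rule of size in both pairs, 12 with the same direction and 6 with opposite ones, and dashed lines mark 2-fold.

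Pieces of transcripts formed separate sets of rows, with the exons, introns and untranslated regions (UTRs) of annotated transcripts. Exon rows held 290646 counts in shDis3l2 EVs and 389884 in shNS EVs, near 1% of all counts of each library. Of 442 exon rows with at least 100 counts, 115 were higher (26.0%) and 26 lower (5.88%), 31.9% in all, with a median of 0.27. With TMM on the exon rows themselves the split was 72 and 62 and the median -0.07. The 5 exon rows with most counts, pieces of 4 transcripts, all had ratios below 0 and inside 2-fold, at -0.80 to -0.55, and the 10 largest exon rows took 15.4% of exon counts in shDis3l2 EVs and 23.8% in shNS EVs.

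Intron rows held 7372718 counts in shDis3l2 EVs and 8776400 in shNS EVs. Of 10146 measured, 1062 were higher (10.5%) and 1573 lower (15.5%), 26.0% in all, with a median of -0.05, and 708 and 2099 with the totals of intron rows. Of the 100 intron rows with most counts, 21 ran parallel to a whole-RNA row over the 7 libraries (standard deviation of the log2 quotient under 0.2), 18 of them to a named RNA such as 4.5S RNA or tRNA-iMet-CAT-1-1. These 21 rows held 49.8% of intron counts in shDis3l2 EVs and 50.9% in shNS EVs, a large share of intron counts by this measure. Each intron row was paired with its nearest whole-RNA row, and how often such a search finds a parallel row by coincidence was not tested. Levels within a pair could differ widely. The mean log2 quotient was 7.01 for the intron row paired with tRNA-Tyr-GTA-2-1 and 0.0053 for that paired with tRNA-iMet-CAT-1-1. The intron row parallel to 4.5S RNA stood at 0.61 and the one parallel to tRNA-iMet-CAT-1-1 at 0.55.

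UTR rows held 5262915 counts in shDis3l2 EVs and 5932865 in shNS EVs. Of 1356 measured, 294 were higher (21.7%) and 120 lower (8.85%), 30.5% in all, with a median of 0.38, and with TMM on the UTR rows themselves the split was 176 and 185 and the median 0.04. Leaving out those that repeat a whole-RNA row, 277 of 1161 were higher (23.9%) and 106 lower (9.13%), 33.0% in all. Of the 195 that repeat one, 17 were higher (8.72%) and 14 lower (7.18%), 15.9% in all. Intron rows above 1000 counts leaned the other way from the whole set, with 85 of 650 higher, 8 lower and a median of 0.55. In each of the 3 sets the share past the rule was larger between 100 and 1000 counts than above 1000, at 34.0% and 6.06% for exon rows, 26.8% and 14.3% for intron rows and 32.8% and 12.0% for UTR rows.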

How the data were processed

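RNA was sequenced from 5 EV and 2 whole-cell libraries, 1 per group. The authors deposited a table of estimated counts with 580839 rows. The submitters' processing notes name Salmon, Novoalign, cutadapt and UMI-tools, and the builds GRCm38 and mm10. Their versions, their order and any removal of duplicates are not stated there. How reads were shared between overlapping rows can change single values.

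Counts were rounded to whole numbers. TMM factors came from whole-RNA rows over the 5 EV libraries and, apart, over the 2 cell libraries (edgeR 4.0.16, R 4.3.3). Ratios have exact conditional binomial 95% intervals, and shares have Clopper-Pearson intervals (scipy 1.17.1, Python 3.11.15, numpy 2.4.6, pandas 2.3.3, matplotlib 3.10.9). The class fit used edgeR's quasi-likelihood test with 3 residual degrees of freedom and includes both libraries of the pair. DESeq2 1.42.0 was an alternative. The fit was tested on simulated data.

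Named RNAs are all named rows past the rule of size, families past it, the 4 families with an intron, the 10 most abundant rows, and at most 2 higher and 2 lower unnamed transcripts. Some abundant rows are given by class only. Members and lists were chosen with earlier results of these data known. No sequence is shown. Of 3639 transcript IDs, 0 could be named.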

Additional observations from a re-analysis of the deposited data

Results flagged for a closer look

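Several values had opposite directions in EVs and in whole cells, and none of these differences was tested, since each group has 1 library. tRNA-Val-AAC-1-1 had a log2 ratio of shDis3l2 over shNS of 1.05 in EVs and -1.06 in cells. With totals its EV ratio was 0.96, inside the rule. All cell ratios here are with TMM, and the number of RNAs past the rule in cells moved with the scaling. Among unnamed transcripts past the rule of size in both, ratios were 1.43 in EVs and -1.35 in cells for the first, and 1.10 in EVs and -1.15 in cells for another. For 3 more, EVs were lower and cells higher, at -1.04 in EVs and 1.02 in cells, -1.33 in EVs and 3.34 in cells, and -2.51 in EVs and 2.54 in cells. The unspliced share of Tyr-GTA was 9.78 percentage points higher in shDis3l2 than in shNS EVs, and the difference was -10.5 points in cells.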

How the results depend on the processing

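Of 67 counts recomputed, 41 stayed within 1.5 times and 26 moved. The 41 include counts with TMM on the pair with shDis3l2 EVs as reference, a setting that left every ratio as it was. Families lower, which numbered 0 under each scaling, are among the 41 as well. For whole RNAs, a minimum of 20 counts gave 57 higher and 73 lower, 500 counts 16 and 4, a 1.5-fold limit 83 and 51, and a 3-fold limit 6 and 8. Families higher numbered 1 with totals, 0 with DESeq2 size factors and 0 with the totals of all rows. Exon rows gave 72 higher and 62 lower with their own TMM, which reversed their median to -0.0699, and 1827 and 1716 at 20 counts. Intron rows gave 7311 and 12030 at 20 counts, and their own TMM reversed the median to 0.0041. UTR rows gave 191 higher with their own totals, 176 higher and 185 lower with their own TMM, and 3014 and 2376 at 20 counts. The class fit called 3 RNAs with no filter on low counts and 2 with the DESeq2 Wald test. Leaving out each EV library in turn gave 0 to 2 calls by edgeR, 0 without Vector and 2 without D389N. Alternatives chosen after seeing the data were the scalings of the class split, of the order of EV libraries and of the cell pair, the set of UTR rows and a minimum of 1000 counts for the class split. No named RNA reversed, and 14 of 168 values fell below 2-fold. The 168 include RNAs and families that were already inside 2-fold and so could not fall below it. They also include TMM on the pair with shDis3l2 EVs as reference, which shifted no ratio. No paired analysis was possible because each group has 1 library. The cause of these changes was not tested.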

Other observations

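Transcripts that were lower in shDis3l2 cells by the rule of size numbered 53 among those measured in EVs, and 35 of them had ratios above 0 in EVs, with a median of 0.47. Of the 38 transcripts higher in shDis3l2 cells, 24 were above 0 in EVs, with a median of 0.25. Over all 222 transcripts with a finite EV ratio, 129 were above 0 and the median was 0.14. tRNAs lower in shDis3l2 cells numbered 28, and 8 of them were above 0 in EVs, with a median of -0.20. In EVs 5 of the 53 transcripts were lower and 2 higher by the same rule. These are descriptions of single libraries.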
